A study of Homo sapiens with 48 samples.

Results

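TXNIP, ARRDC4, ARRDC3, MLXIP and MLX, 5 of the 14685 genes counted in this series, were followed in all 48 libraries. They are the rows whose Ensembl identifiers carry these symbols. TXNIP and ARRDC4 were chosen by measured values, since both had been called lower under T-REX than in the controls at 3, 6 and 12 h in these same counts. The other 3 were added for their place in the pathway. The T-REX values of all 5 genes, over time too, are therefore a description: they carry no p, and where their calls are counted nothing is read from the count.

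MLXIP encodes MondoA, a basic helix-loop-helix leucine zipper protein that pairs with MLX. Rising glucose 6-phosphate moves the pair from the cytoplasm into the nucleus, where it binds carbohydrate response elements and activates a small set of genes. TXNIP and its relative ARRDC4 are the best known of these, and TXNIP transcript is widely used as a readout of MondoA. Both products are alpha-arrestins that lower glucose uptake, and TXNIP also binds and inhibits thioredoxin. ARRDC3, another alpha-arrestin, acts as an adaptor for NEDD4 family ubiquitin ligases.

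The cells were HEK293T, derived from human embryonic kidney, and carried a transfected plasmid for NCBP1 fused to Halo, the wild-type NCBP1 in every arm. NCBP1 is the larger protein of the complex that binds the cap of nuclear RNA. In T-REX the cells received Ht-PreHNE, a photocaged form of the lipid-derived electrophile 4-hydroxynonenal (HNE) that docks on Halo, and then light, which releases HNE beside NCBP1. The controls were light alone, probe alone and DMSO, although the study's methods also list the probe for the arm labelled as the light control. Each arm gave RNA at 3, 6 and 12 h from 4 replicates, and the series calls them independent. Transfected cells are a mixed population, and fewer cells with a transcript and less transcript per cell cannot be told apart in bulk RNA.

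Library totals lay between 23952455 and 37099535 counts, and the biological coefficient of variation was 11.9%, 10.0% and 9.35% at 3, 6 and 12 h. Counting error was small for the members, which had at least 358 counts in every library. The NCBP1 row, which pools the endogenous gene and the plasmid, took 3.09% to 8.99% of all counts. Of 9 markers of HEK293 cells 8 were listed, with a summed level of 624.9 to 994.0 CPM, and PAX2 was not listed. VIM alone gave 436.9 to 667.9 CPM of this sum, while KRT8 lay at 4.39 to 10.4 CPM and LHX1 at 0.77 to 3.15. Of 9 markers of other cell types only COL1A1 and CDH1 were listed, with a summed level of 4.12 to 8.39 CPM, and the blood, endothelial, liver and heart muscle markers were not.

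The promoters of TXNIP and ARRDC4 are shown because these 2 genes had lower levels together and are known direct targets of MondoA. Each stretch is the 250 bases before the start annotated by RefSeq on GRCh38.p14, printed along the gene's own strand. The TXNIP stretch is chr1:145996580-145996829 on the minus strand, before the first of 2 annotated starts. The ARRDC4 stretch is chr15:97960453-97960702 on the plus strand. Capitals mark every CACGNG, the core of a carbohydrate response element, and every CCAAT, the motif of the factor NF-Y, on either strand (CNCGTG and ATTGG on the other). CACGNG includes the E-box CACGTG.
TXNIP: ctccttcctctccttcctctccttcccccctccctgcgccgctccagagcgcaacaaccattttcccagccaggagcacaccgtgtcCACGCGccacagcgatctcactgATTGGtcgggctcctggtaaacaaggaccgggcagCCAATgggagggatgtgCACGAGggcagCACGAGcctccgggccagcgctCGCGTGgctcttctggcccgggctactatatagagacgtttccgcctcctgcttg
ARRDC4: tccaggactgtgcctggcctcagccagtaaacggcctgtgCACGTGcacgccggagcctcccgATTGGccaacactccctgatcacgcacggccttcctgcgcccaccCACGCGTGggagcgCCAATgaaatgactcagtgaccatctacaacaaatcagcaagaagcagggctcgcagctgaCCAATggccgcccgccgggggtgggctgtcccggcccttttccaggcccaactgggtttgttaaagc

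A carbohydrate response element consists of 2 E-box-like motifs with 5 bases between them. In TXNIP such a pair lay from -88 to -72 relative to the start, and read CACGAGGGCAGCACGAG. Pairs of CACGNG, each on either strand, with 5 bases between them were found before 23 of 35116 annotated starts, or 0.0655%. Among the 63 genes of the members and pathway lists that the promoter table holds, the pair was found before TXNIP and PKLR, the liver pyruvate kinase gene, which was not listed in the count tables. The TXNIP window held 4 CACGNG matches and 2 CCAAT boxes. The ARRDC4 window held 1 E-box from -210 to -205, a pair of overlapping CACGNG matches from -142 to -135, and 3 CCAAT boxes. No pair with this spacing was found among the letters of the ARRDC4 window.

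Single motifs were common before other genes too. CACGNG was found before 26.7% of the annotated starts, the E-box before 6.34%, CCAAT before 32% and 2 or more CCAAT boxes before 9.53%. The windows of MLX and MLXIP each held 1 CCAAT box, and MLX also held an E-box from -50 to -45. ARRDC3 held 1 CCAAT box before its first start and 1 CACGNG before its second. These matches describe letters, and binding was not measured.

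**Figure D1:**
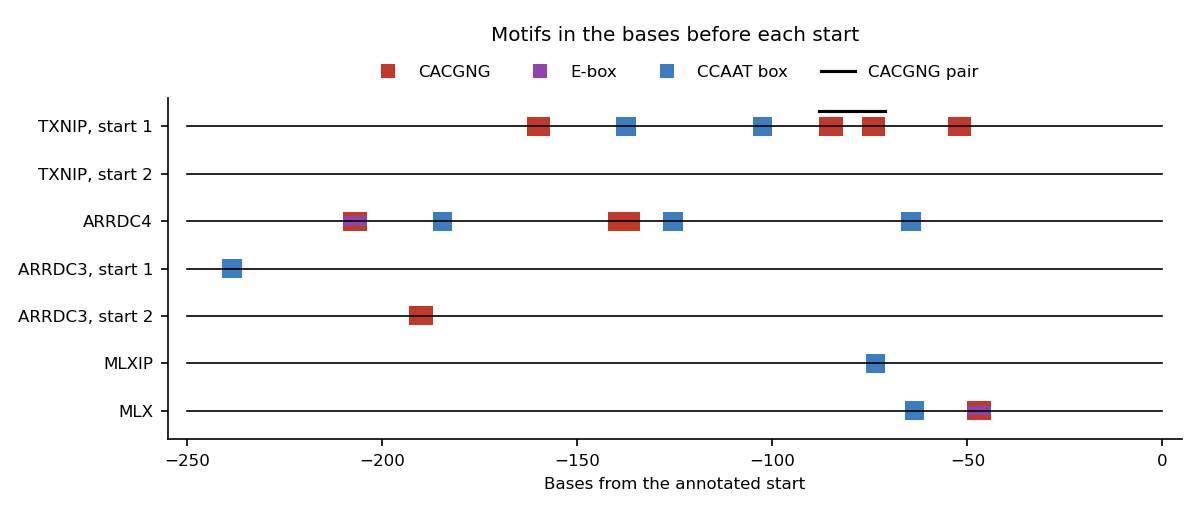
Positions of motifs in the 250 bases before each annotated start of the 5 genes, in bases from the start (0). Red blocks are CACGNG, purple blocks the E-box, blue blocks CCAAT, and the black bar marks the TXNIP pair of CACGNG from -88 to -72. The second TXNIP start has no motif in its window.

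TXNIP level was lower in every T-REX library than in any control library at each time. Levels are CPM, a gene's counts as a share of the library's total, with TMM scaling of library size, a correction for differences in composition between libraries, and values follow the replicate numbers 1 to 4. At 3 h, TXNIP measured 31.6, 40.5, 36.6 and 26.9 CPM under T-REX. With light alone it measured 51.3, 56.7, 61.0 and 56.7 CPM, with probe alone 53.2, 60.2, 60.3 and 49.3, and with DMSO 47.8, 55.8, 51.3 and 52.8. The highest T-REX library (40.5) lay below the lowest control library (47.8). At 6 h, TXNIP measured 28.6, 33.9, 33.7 and 25.4 CPM under T-REX. The controls at 6 h measured 54.9, 55.9, 60.6 and 52.6 with light alone, 60.9, 48.2, 60.5 and 65.4 with probe alone, and 55.1, 57.4, 55.9 and 55.2 with DMSO. The gap was wider than at 3 h, from 33.9 to 48.2 CPM. At 12 h, TXNIP measured 21.8, 22.5, 25.5 and 23.8 CPM under T-REX. The controls at 12 h measured 31.7, 36.96, 34.9 and 41.7 with light alone, 45.3, 47.96, 49.3 and 55.6 with probe alone, and 55.0, 38.1, 44.0 and 42.2 with DMSO. The light alone libraries lay nearest to T-REX at 12 h.

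The TXNIP mean under T-REX was 62.0%, 53.5% and 54.2% of the geometric mean of the 3 control means at 3, 6 and 12 h. At 3 h the log2 fold change was -0.74 (SE 0.0995) against light alone, -0.70 (SE 0.0994) against probe alone and -0.61 (SE 0.0995) against DMSO. At 6 h the values were -0.88, -0.95 and -0.88 in the same order, each with an SE of 0.0899. At 12 h they were -0.63 (SE 0.0993), -1.08 (SE 0.099) and -0.94 (SE 0.0991). The 3 comparisons of a time point share the T-REX libraries, so they are not independent of each other.

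ARRDC4 level was likewise lower in every T-REX library than in any control library at each time. At 3 h it measured 31.4, 36.9, 33.7 and 29.7 CPM under T-REX. The controls at 3 h measured 41.6, 46.2, 50.5 and 54.3 with light alone, 46.5, 50.03, 46.9 and 40.3 with probe alone, and 49.2, 51.5, 42.8 and 48.6 with DMSO. The gap at 3 h was narrow, from 36.9 CPM in the highest T-REX library to 40.3 in the lowest control library. At 6 h, ARRDC4 measured 23.3, 29.5, 28.3 and 24.8 CPM under T-REX. The controls at 6 h measured 41.3, 39.9, 47.7 and 35.8 with light alone, 34.4, 38.6, 35.2 and 38.1 with probe alone, and 37.9, 41.4, 39.7 and 38.2 with DMSO. Probe alone was the control nearest to T-REX at 6 h. At 12 h, ARRDC4 measured 25.2, 23.2, 24.8 and 21.8 CPM under T-REX. The controls at 12 h measured 38.3, 32.9, 36.98 and 39.5 with light alone, 37.1, 33.0, 32.5 and 32.9 with probe alone, and 40.2, 41.0, 44.8 and 40.3 with DMSO. All 4 DMSO libraries lay above the highest library of the other arms at 12 h, and the share of all genes with this order was not computed.

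The ARRDC4 mean under T-REX was 69.5%, 67.9% and 63.6% of the geometric mean of the control means at 3, 6 and 12 h. With the controls in the order light, probe and DMSO, its log2 fold changes were -0.55, -0.46 and -0.54 at 3 h (SEs of 0.0857 to 0.0858). At 6 h they were -0.64, -0.47 and -0.57 with SEs of 0.0868 to 0.0869, and at 12 h -0.63, -0.51 and -0.81 with SEs of 0.0742 to 0.0744. The log2 fold change of ARRDC4 was smaller in size than that of TXNIP in 8 of the 9 comparisons, and in the remaining one, light alone at 12 h, both were -0.63.

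ARRDC3 level was higher under T-REX than the control means at each time, at 117%, 124% and 135% of their geometric mean at 3, 6 and 12 h. At 12 h it measured 197.3, 172.2, 173.6 and 201.3 CPM under T-REX, and 119.3, 132.4, 121.9 and 145.6 with light alone. With probe alone it measured 136.5, 155.2, 147.3 and 193.4 CPM at 12 h, and with DMSO 105.8, 128.2, 148.0 and 131.4. The T-REX libraries lay above all light alone and DMSO libraries at 12 h and overlapped with probe alone. At 3 h ARRDC3 measured 160.2, 136.7, 132.1 and 128.9 CPM under T-REX, and the 12 control libraries lay between 104.5 and 137.3. At 6 h it measured 165.2, 161.9, 174.4 and 187.0 CPM under T-REX, and the controls lay between 104.9 and 167.8. At each time the T-REX libraries lay above all libraries of 2 of the 3 control arms. The share of all genes separated in this way was not computed, so nothing is read from it. In the same order of controls the log2 fold changes of ARRDC3 were 0.16, 0.29 and 0.26 at 3 h, 0.43, 0.15 and 0.33 at 6 h, and 0.52, 0.23 and 0.54 at 12 h, with SEs of 0.0802 to 0.106.

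MLXIP levels under T-REX overlapped with every control arm at every time, and MLX levels did so except with light alone at 12 h, where all 4 T-REX libraries lay above it. The share of all genes separated from a single control arm was not computed, so nothing is read from this. MLXIP group means ran from 78.9 to 82.1 CPM under T-REX and from 79.2 to 89.8 CPM in the controls over the 3 times. Its log2 fold changes lay between -0.19 and 0.05 (SEs of 0.0736 to 0.0981). MLX, the common partner of MondoA and ChREBP, had the lowest level of the 5 genes, with group means of 18.1 to 22.3 CPM under T-REX and 15.9 to 22.3 CPM in the controls. Its log2 fold changes lay between -0.02 and 0.26 (SEs of 0.106 to 0.146).

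**Figure D2:**
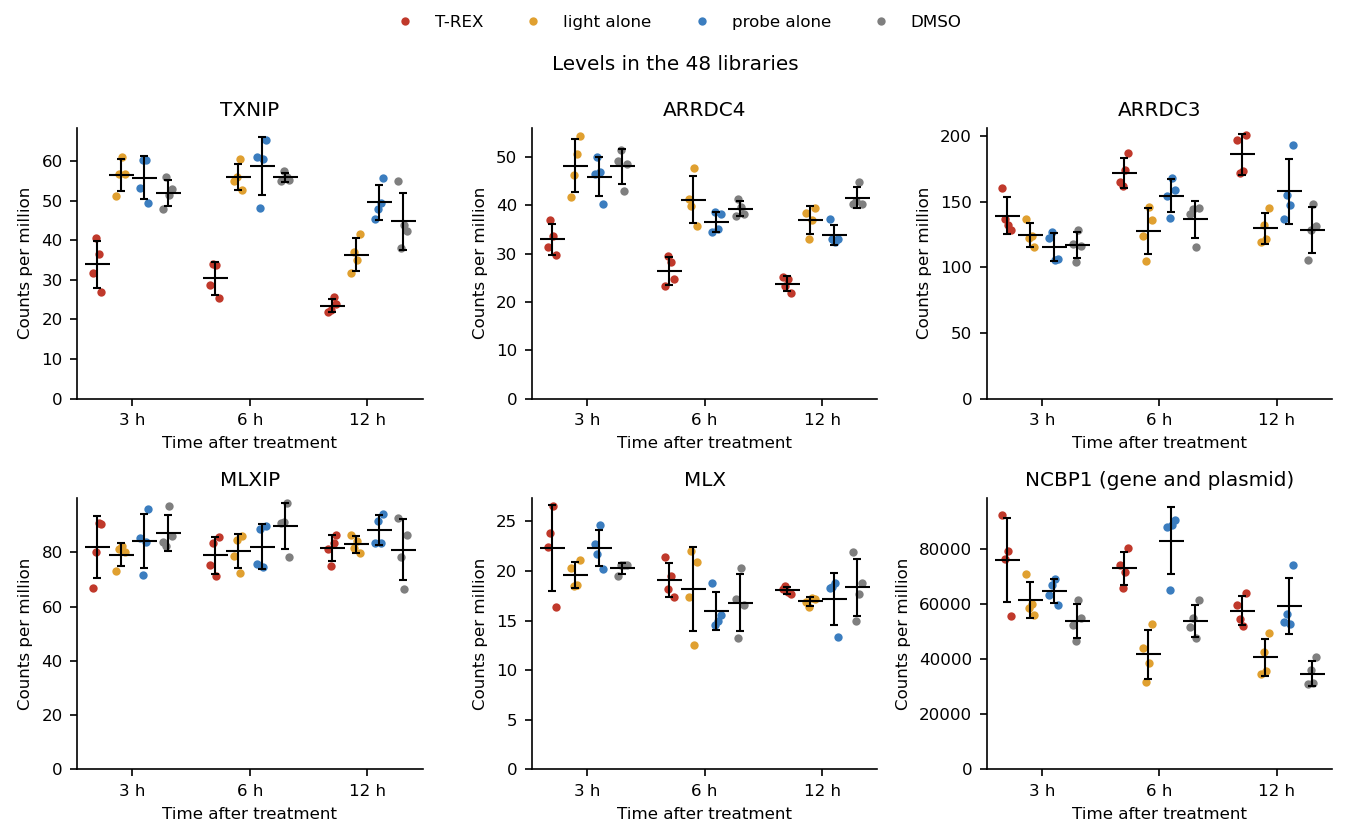
Level in CPM (vertical axis, starting at 0) of the 5 genes and of the NCBP1 row at 3, 6 and 12 h, with 1 point per library in 4 arms. Black lines are the mean and SD of 4 libraries. The T-REX points of TXNIP and ARRDC4 lie below all control points at each time, those of ARRDC3 lie above the light alone and DMSO points at 12 h, and MLXIP and MLX overlap with the controls except MLX with light alone at 12 h.

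Calls were made with edgeR's quasi-likelihood test at an adjusted p of at most 0.05 over all genes of a comparison. TXNIP and ARRDC4 were called lower in all 9 comparisons each, and ARRDC3 was called higher in 2 of 9, against light alone and DMSO at 12 h. MLXIP and MLX were not called. In fits of only the 2 arms compared, TXNIP and ARRDC4 at 3 h were no longer called against light alone or probe alone. ARRDC4 against probe alone was also lost at 3 h without T-REX replicate 4 or probe alone replicate 1 or 2, and at 6 h without T-REX replicate 1 or 4 or probe alone replicate 2 or 4. At 12 h leaving out T-REX replicate 1 or light alone replicate 1 or 3 ended the ARRDC3 call against light alone. Other fits added calls of ARRDC3 at 3 and 6 h, and with the RUV scores, the deposited factors of unwanted variation, MLXIP was called lower against DMSO at 6 h. Over all genes, the share called in either direction at 3 h was 0.197% for light alone, 1.05% for probe alone and 5.99% for DMSO as the control. It was 0.218%, 0.109% and 0.415% at 6 h, and 1.29%, 0.701% and 10.9% at 12 h, in the same order. Under the study's rule, a gene is significantly differentially expressed (SDE) when 2 or more of the 3 comparisons call it with the same sign. SDE genes were 0.947%, 0.136% and 1.4% of all genes at 3, 6 and 12 h, and 6 genes (0.0409%) were SDE and lower at all 3 times, TXNIP and ARRDC4 among them.

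By levels alone, without a test, 1.65%, 0.422% and 1.17% of all genes had all 4 T-REX libraries below all 12 control libraries at 3, 6 and 12 h. At all 3 times together this held for 6 genes (0.0409%), which were TXNIP, ARRDC4, KDM3A, SDC2, DIPK2A and POU3F2. The other 4 are named only because the count is small, after their values were seen. KDM3A encodes a histone demethylase, SDC2 a cell surface heparan sulfate proteoglycan and POU3F2 a neural transcription factor. Since TXNIP and ARRDC4 were chosen for this pattern, nothing is read from their place in these counts.

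**Figure D3:**
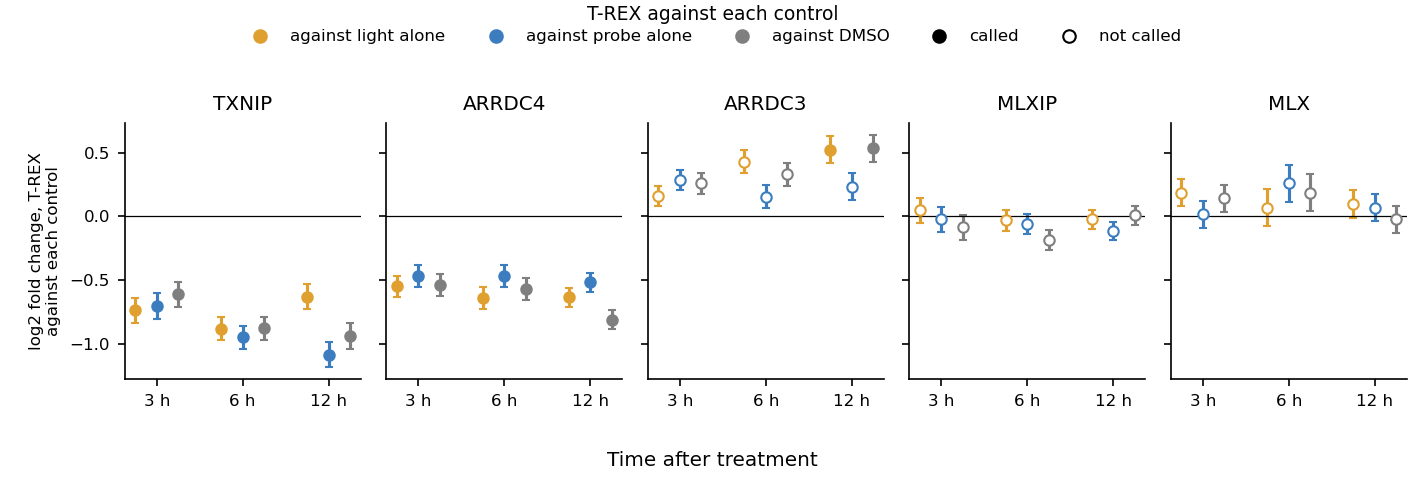
log2 fold change of T-REX against each control (vertical axis) at 3, 6 and 12 h for the 5 genes, with 1 SE as the error bar and filled points for calls. TXNIP lies between -1.08 and -0.61 and ARRDC4 between -0.81 and -0.46, while MLXIP and MLX lie near 0.

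How far these genes vary without T-REX is shown by the control arms compared with each other, contrasts that the choice of the genes did not use. Of 45 comparisons of a member between 2 control arms, 2 were called with edgeR, both at 12 h, and 7 had an unadjusted p under 0.05. At 12 h TXNIP was lower in the light arm than in the probe arm, by a log2 fold change of -0.45 (SE 0.097, adjusted p = 0.0365), where 0.415% of all genes were called. ARRDC4 at 12 h was lower in the probe arm than in the DMSO arm, by -0.29 (SE 0.0733, adjusted p = 0.0214), where 5.11% of all genes were called. Group means place these differences beside T-REX. At 12 h TXNIP averaged 36.3 ± 4.18 CPM with light alone, 44.8 ± 7.20 with DMSO and 49.5 ± 4.36 with probe alone, and 23.4 ± 1.65 under T-REX (SD, n = 4). The light alone and DMSO libraries overlapped, and their TXNIP difference of -0.31 (SE 0.0972) missed the threshold (adjusted p = 0.363). ARRDC4 averaged 33.9 ± 2.14 CPM with probe alone, 36.9 ± 2.85 with light alone and 41.6 ± 2.17 with DMSO at 12 h, and 23.8 ± 1.55 under T-REX (SD, n = 4).

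Neither call held when each library was left out in turn. The TXNIP call was lost without light alone replicate 1, 2 or 3 (adjusted p = 0.137, 0.106 and 0.162) or probe alone replicate 2, 3 or 4 (adjusted p = 0.0833, 0.101 and 0.0682). The ARRDC4 call was lost without probe alone replicate 2, 3 or 4 (adjusted p = 0.0693, 0.0667 and 0.0568) or DMSO replicate 3 (adjusted p = 0.0508). The ARRDC4 call was also lost in a fit of only these 2 arms (adjusted p = 0.123). ARRDC3, MLXIP and MLX were not called between controls, and the ARRDC3 differences ran from -0.29 to 0.30. In the other control comparisons the share of all genes called was 0.00681% for light alone against DMSO, 0.00681% for probe alone against DMSO and 0.232% for light alone against probe alone at 3 h. At 6 h the shares were 0.00681%, 0.0272% and 0.0613% in that order, and for light alone against DMSO at 12 h it was 0.0136%.

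Whether the control differences changed with time was tested with interaction terms over all 48 libraries. With edgeR 0 of 20 such tests on the members were called, as with DESeq2, and 2 had an unadjusted p under 0.05. The largest in size was TXNIP, whose difference between light alone and DMSO moved by -0.42 (SE 0.146) from 3 to 12 h (adjusted p = 0.998). The share of all genes called was 0.613% and 0.00681% for light alone minus DMSO at 6 and 12 h against 3 h, and 0% and 0.00681% for probe alone minus DMSO.

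The 3 times are separate sets of libraries, so time cannot be told apart from whatever else differs between these sets. ARRDC4 was called lower at 6 h and at 12 h than at 3 h in all 3 control arms, which gave 6 calls of 9 tests. From 3 to 12 h its log2 change was -0.38 (SE 0.083, adjusted p = 0.000213) with light alone, -0.44 (SE 0.0833, adjusted p = 2.54e-05) with probe alone and -0.21 (SE 0.0828, adjusted p = 0.0402) with DMSO. From 3 to 6 h the changes in these arms were -0.23, -0.33 and -0.29 (adjusted p = 0.0385, 0.00303 and 0.0116). Under T-REX the log2 values were -0.31 (SE 0.0848) from 3 to 6 h and -0.47 (SE 0.085) from 3 to 12 h. Between 6 and 12 h no ARRDC4 change was called in a control arm, and the values of all 4 arms lay between -0.16 and 0.08. ARRDC4 in the 4 DMSO libraries averaged 48.04 ± 3.68 CPM at 3 h, 39.3 ± 1.60 at 6 h and 41.6 ± 2.17 at 12 h (SD, n = 4).

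TXNIP was called lower at 12 h than at 3 h with light alone, by a log2 change of -0.64 (SE 0.104, adjusted p = 2.99e-06). The changes with probe alone and DMSO over the same time, -0.17 and -0.21, were not called (adjusted p = 0.184 and 0.0982). From 6 to 12 h TXNIP fell with light alone (-0.62, adjusted p = 3.48e-05) and with DMSO (-0.32, adjusted p = 0.0346). The probe alone change of -0.25 from 6 to 12 h was not called (adjusted p = 0.0897). Under T-REX the log2 values were -0.54 (SE 0.107) from 3 to 12 h and -0.38 (SE 0.106) from 6 to 12 h. From 3 to 6 h no TXNIP change was called in a control arm, and the values of all 4 arms lay between -0.16 and 0.11.

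ARRDC3 rose with probe alone, by 0.42 at 6 h (adjusted p = 0.00273) and 0.45 at 12 h (adjusted p = 0.000466) on the log2 scale against 3 h. Under T-REX its values were 0.30 (SE 0.103) and 0.42 (SE 0.103). With light alone and DMSO the values lay between 0.03 and 0.23 and were not called. In the interaction tests the ARRDC3 changes with probe alone were not shown to differ from those with DMSO (adjusted p = 0.974 and 0.521 at 6 and 12 h). MLX fell with probe alone, by 0.49 at 6 h (adjusted p = 0.00504) and by 0.38 at 12 h (adjusted p = 0.0155) on the log2 scale. Under T-REX the MLX value from 3 to 12 h was -0.31 (SE 0.129). The MLX changes with probe alone were not shown to differ from those with DMSO (adjusted p = 0.974 and 0.752 at 6 and 12 h). MLXIP had 0 of 9 changes called in the control arms with edgeR and with DESeq2, and 0 had an unadjusted p under 0.05.

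Many genes differed between the times, so these 13 calls of 45 tests in the control arms stand beside high backgrounds. The T-REX arm had 6 calls of 15, from which nothing is read. From 3 to 6 h the share of all genes called was 23.3%, 25.3%, 21.5% and 16% in the T-REX, light, probe and DMSO arms. From 3 to 12 h it was 41.7%, 39.4%, 42.3% and 38.8%, and from 6 to 12 h 12.4%, 16.5%, 17.9% and 12.1%.

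Some of the time calls rested on single libraries. The ARRDC4 change from 3 to 6 h with light alone was lost without light alone 3 h replicate 3 or 4, light alone 6 h replicate 1, 2 or 4, T-REX 3 h replicate 3, or probe alone 6 h replicate 1, 3 or 4 (adjusted p from 0.05 to 0.171), and in a fit of only the 2 groups compared (adjusted p = 0.164). That with DMSO was lost without DMSO 3 h replicate 2 (adjusted p = 0.0552). The ARRDC4 change from 3 to 12 h with DMSO was lost without DMSO 3 h replicate 1, 2 or 4, DMSO 6 h replicate 2, or DMSO 12 h replicate 1, 2 or 4 (adjusted p from 0.0508 to 0.13), and with only its 2 groups (adjusted p = 0.0506). The TXNIP change from 6 to 12 h with DMSO was lost without any DMSO 6 h library or DMSO 12 h replicate 2, 3 or 4 (adjusted p from 0.0578 to 0.146), and with only its 2 groups (adjusted p = 0.117). The MLX change from 3 to 12 h with probe alone was lost without probe alone 3 h replicate 3 or probe alone 12 h replicate 4 (adjusted p = 0.0576 and 0.101).

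Compared per kilobase of exon, ARRDC3 had the highest level of the 5 genes in DMSO cells. Over the 12 DMSO libraries it averaged 25.8 ± 3.11 CPM per kb, TXNIP 14.0 ± 1.75, ARRDC4 10.6 ± 1.12, MLXIP 6.19 ± 0.647 and MLX 4.34 ± 0.614 (SD, n = 12, with exon lengths from GENCODE 29). The ranges of TXNIP (10.5 to 15.8) and ARRDC4 (9.30 to 12.6) overlapped, as did those of MLXIP (4.79 to 7.07) and MLX (3.10 to 5.14). ChREBP (MLXIPL), the other glucose-sensing partner of MLX, stood at 1.07 ± 0.232 CPM per kb. ARRDC1 and ARRDC2, further alpha-arrestins, stood at 0.797 ± 0.234 and 0.519 ± 0.136.

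TXNIP and ARRDC4 had similar profiles over the 48 libraries. After subtracting the mean of each time point from log2 CPM, ARRDC4 had the highest correlation with TXNIP of 14684 genes (Pearson r = 0.84), followed by CRKL, FBXO5, MEIS2 and PNRC1 (0.79 to 0.73). For ARRDC4 the highest were POU3F2 (0.88), SDC2 (0.86), TXNIP (0.84), HOXA13 and PCDH10. These values contain the difference between T-REX and the controls that chose TXNIP and ARRDC4. After also subtracting the mean of each arm, the r between TXNIP and ARRDC4 was 0.41 (Spearman rho 0.39, n = 48). It ranked 136 among the genes for TXNIP and 795 for ARRDC4.

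Within arms the relation had different values at the 3 time points. Pearson's r took the values 0.74, 0.47 and -0.15 at 3, 6 and 12 h (rho 0.70, 0.56 and -0.33, n = 16 each), and 0.42 over the 48 libraries without the 2 farthest in TXNIP. Without the 2 libraries farthest in TXNIP these became 0.67, 0.80 and -0.30. In the 36 control libraries alone r and rho were both 0.22, and r was 0.37 without the 2 farthest. The genes most like TXNIP within arms were DYNLL1, DNAJB1, TMEM70, ATP6V0E1 and COPS3 (r of 0.57 to 0.56), and those most like ARRDC4 were RBM7 (0.71), PDK3, NAA30, MID2 and BUB3 (0.65 to 0.63). Libraries share depth, composition and preparation, so these are descriptions without a p.

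Libraries with more NCBP1 had more ARRDC3. After subtracting time means NCBP1 ranked 3 among 14684 genes for ARRDC3 (r = 0.80), in values that still contain the differences between arms. Within arms it ranked 45, with an r of 0.72 over 48 libraries (Spearman rho 0.72). The within-arm r was 0.71, 0.72 and 0.74 at 3, 6 and 12 h (n = 16 each), and 0.71 in the 36 controls. Without the 2 libraries farthest in NCBP1 it was 0.70 over the rest, 0.65, 0.49 and 0.56 at 3, 6 and 12 h, and 0.67 in the controls. This pair was picked after its values were seen. Within arms NCBP1 had an r of 0.20 with TXNIP and -0.28 with ARRDC4, which became 0.09 and -0.42 without the 2 farthest.

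**Figure D4:**
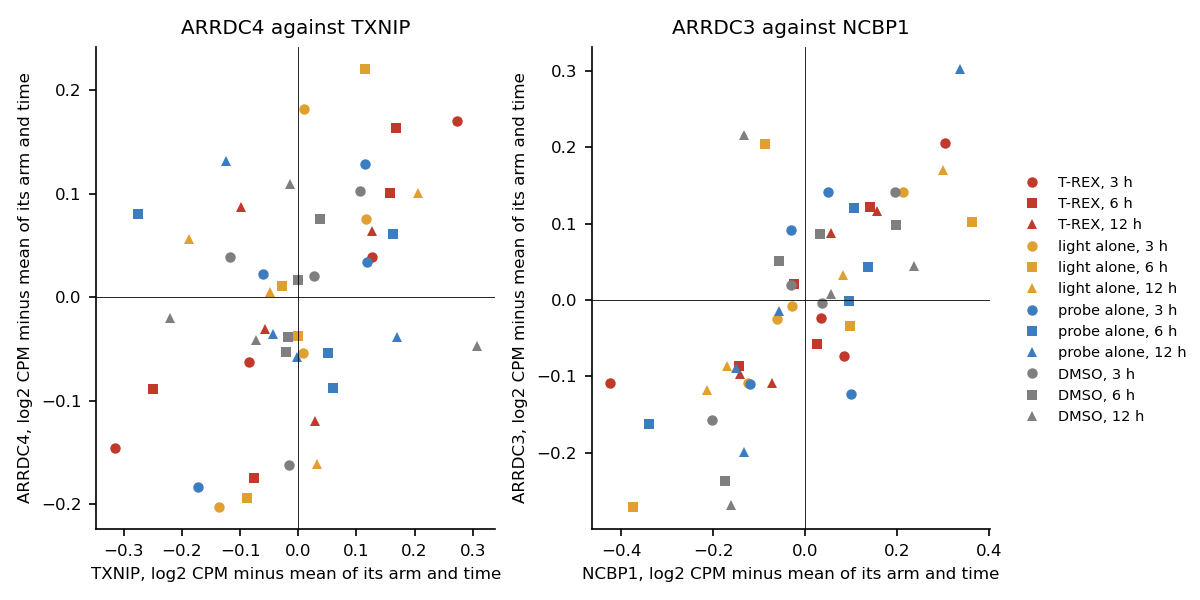
log2 CPM of each of the 48 libraries minus the mean of its arm and time, for ARRDC4 against TXNIP (left) and ARRDC3 against the NCBP1 row (right). Colours are arms and shapes are times. The left cloud is loose (r = 0.41) and the right one rises more clearly (r = 0.72).

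The NCBP1 row also differed between arms. With the controls in the order light, probe and DMSO, its log2 fold changes under T-REX were 0.30, 0.25 and 0.50 at 3 h, 0.80, -0.19 and 0.44 at 6 h, and 0.51, -0.04 and 0.73 at 12 h. Those against DMSO at 3 and 12 h and against light alone at 6 h were called. It averaged 75865 ± 15157 CPM under T-REX and 53847 ± 6155 with DMSO at 3 h. At 12 h it averaged 57501 ± 5339 CPM under T-REX, 59151 ± 10048 with probe alone, 40520 ± 6848 with light alone and 34642 ± 4554 with DMSO (SD, n = 4). ARRDC3 at 12 h was in the same order for T-REX and probe alone against the other arms, and the part of NCBP1 level in that, or in the TXNIP and ARRDC4 values, was not tested.

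The pathway around MondoA was described with 62 measured genes of 71 listed. With edgeR, 6 of them were SDE at 1 or more times and all 6 were lower, MXI1 and ELOVL6 at 3 h and SLC2A1, PFKFB3, LDHA, PGM1 and MXI1 at 12 h. That is 2 of 62 at 3 h and 5 of 62 at 12 h, where 0.947% and 1.4% of all genes were SDE. The lists were chosen with earlier results of these data known. Their counts, here and in the lists below, are therefore a description, and nothing is read from their distance to the shares over all genes. At 6 h 0 of 62 were SDE with edgeR, 1 (PFKFB3) was with DESeq2, and 7 genes had an unadjusted p under 0.05 and the same sign in 2 or more of the comparisons. The share of all genes passing this looser rule was not computed, so such counts, here and in the lists below, have no background. No pathway gene was SDE and higher in the main edgeR fit. With the RUV scores 5 of 11 SDE pathway genes at 3 h and 1 of 4 at 6 h were higher.

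SLC2A1, which encodes GLUT1, the glucose transporter that TXNIP and ARRDC4 draw into the cell, fell at 12 h. Its log2 fold change was -0.69 (SE 0.0928, adjusted p = 0.000179) against light alone, -0.50 (SE 0.0931, adjusted p = 0.0102) against probe alone and -0.45 (SE 0.0932, adjusted p = 0.00339) against DMSO. Against probe alone the call did not hold when T-REX replicate 1 or 2 or probe alone replicate 2 was left out (adjusted p = 0.0582, 0.0535 and 0.06). At 6 h its values were -0.22, -0.52 and -0.33 in that order and were not called with edgeR (adjusted p = 0.501, 0.163 and 0.26), while DESeq2 called that against probe alone. At 3 h its values lay between -0.08 and -0.04. PGM1, which links glucose 6-phosphate to glycogen, was lower at 12 h, with -0.32 against probe alone and -0.23 against DMSO (adjusted p = 0.0388 and 0.043). Both PGM1 calls were lost without any single T-REX library, without light alone replicate 2 or 4, probe alone replicate 1, 2 or 3, or DMSO replicate 2, and the second also without DMSO replicate 1 or 4 (adjusted p from 0.0501 to 0.213). With the replicate number as a block neither was called (adjusted p = 0.0677 and 0.0571). HK1 and HK2, the hexokinases that make glucose 6-phosphate, had values of -0.15 to 0.17 and of -0.55 to -0.02. HK2 was called lower against light alone at 12 h (-0.55, SE 0.106, adjusted p = 0.00877) and, with edgeR, not in the other 8 comparisons. DESeq2 also called it against probe alone at 6 and 12 h (adjusted p = 0.0236 and 0.00578) and DMSO at 12 h (adjusted p = 0.0222). The replicate block added the calls against probe alone and DMSO at 12 h (adjusted p = 0.0221 and 0.0292, edgeR).

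Over the 15 measured genes of glucose uptake and glucose 6-phosphate, 0 were called at 3 and 6 h. At 12 h 2, 2 and 3 of them were called lower against light, probe and DMSO, where 1.29%, 0.701% and 10.9% of all genes were called. With 0 calls at 3 and 6 h, 1 and 3 genes passed an unadjusted p under 0.05 against at least 2 controls, and DESeq2 gave no SDE gene of this list at these times. Their median log2 fold change at 12 h was -0.16, -0.14 and -0.08, beside medians over all genes of 0.000913, 0.00138 and 0.00313.

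Among 10 other targets of MondoA or ChREBP, HK2 again included, LDHA and PFKFB3 carried the largest values. LDHA, which converts pyruvate to lactate, fell at 12 h, with log2 fold changes of -0.69 (SE 0.0844, adjusted p = 0.000159) against light alone, -0.63 (SE 0.0843, adjusted p = 0.000545) against probe alone and -0.72 (SE 0.0844, adjusted p = 3.41e-05) against DMSO. PFKFB3, which makes an activator of phosphofructokinase, fell at 12 h, with -0.71 (SE 0.102, adjusted p = 0.000369), -0.58 (SE 0.102, adjusted p = 0.00499) and -0.48 (SE 0.102, adjusted p = 0.00427) in that order, and the last call was lost in a fit of only the 2 arms (adjusted p = 0.0547). At 6 h PFKFB3 had values of -0.26, -0.45 and -0.38, not called with edgeR (adjusted p = 0.35, 0.139 and 0.112), while DESeq2 called those against probe alone and DMSO. The LDHA values at 6 h, -0.20, -0.25 and -0.07, were not called. At 3 h ELOVL6, a fatty acid elongase, was lower against probe alone (-0.40) and DMSO (-0.30, adjusted p = 0.0167 and 0.0283), beside a value of -0.02 against light alone. At 12 h the counts of this list were 3, 2 and 4 called lower of 10, with medians of -0.12, -0.20 and -0.22. Over all genes 1.29%, 0.701% and 10.9% were called in these comparisons, with medians of 0.000913, 0.00138 and 0.00313. SLC2A1, LDHA, PFKFB3, PGM1, HK2 and MXI1 are also known as genes induced by low oxygen.

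In the MLX and MAX network, the partners and rivals of these factors, MXI1 was the only gene called of 10. It was called against probe alone and DMSO at 3 h, where 1.05% and 5.99% of all genes were called. At 12 h it was called against light alone and DMSO, where 1.29% and 10.9% were. MXI1 encodes a repressor that pairs with MAX. It was lower at 3 h, with -0.24 (SE 0.0531, adjusted p = 0.0386) against probe alone and -0.24 (SE 0.0531, adjusted p = 0.0104) against DMSO. At 6 h its values of -0.23, -0.30 and -0.26 were not called (adjusted p = 0.268, 0.23 and 0.146). At 12 h it was lower by -0.42 (SE 0.0678, adjusted p = 0.00094) against light alone and -0.38 (SE 0.0679, adjusted p = 0.000983) against DMSO, and the value of -0.26 against probe alone was not called (adjusted p = 0.0752). The values of MAX lay between -0.06 and 0.07 and those of MYC between -0.15 and 0.14. ChREBP (MLXIPL) ranged from -0.40 to 0.30 and MNT, a repressor that also pairs with MLX, from -0.24 to 0.22, with larger errors.

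The SDE calls at 3 h rested on few libraries. Both were lost without T-REX replicate 4, probe alone replicate 1, or DMSO replicate 1 or 2, and in fits of only the 2 arms compared. MXI1 was also lost without T-REX replicate 2 or probe alone replicate 2 or 3, and ELOVL6 without probe alone replicate 2 or DMSO replicate 4. Without probe alone replicate 2, KLF10, named after its values were seen, was the 1 SDE gene at 3 h. At 12 h SLC2A1, PFKFB3, LDHA and MXI1 were SDE with every library left out in turn, and the count rose from 5 to 9 without DMSO replicate 3.

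Of 11 genes of the thioredoxin system, 1 (PRDX6, a peroxiredoxin named after its values were seen) was called lower against DMSO at 3 h, where 5.99% of all genes were called. At 12 h against DMSO 5 were called lower and 1 higher, where 10.9% of all genes were called. Thioredoxin (TXN), the partner of TXNIP, was lower against DMSO at 12 h (-0.43, SE 0.101, adjusted p = 0.0118), and this call was lost without DMSO replicate 3 (adjusted p = 0.093). Against light alone and probe alone at 12 h TXN differed by -0.18 and -0.38 and was not called. Thioredoxin reductase (TXNRD1) differed by -0.13 to 0.20 and was not called in the main edgeR fit. With the RUV scores in edgeR it was called lower against DMSO at 3 h (adjusted p = 0.0335). It was then called higher against DMSO at 6 h (adjusted p = 0.00487), and against probe alone at 6 and 12 h (adjusted p = 0.0107 and 0.0374). No gene of the list was SDE in the main edgeR fit, and DESeq2 made PRDX6 SDE at 3 h and TXN at 12 h. Other edgeR fits gave more, with genes named after their values were seen. With the RUV scores these were PRDX1, PRDX6 and TXNRD3 at 3 h and TXNRD1 at 6 h. At 12 h they were PRDX1, PRDX3, PRDX4, PRDX6, TXN and TXN2. In fits of only the 2 arms compared they were PRDX1, PRDX3 and TXN at 12 h. An unadjusted p under 0.05 against at least 2 controls at 1 or more times was reached by 8 of 11. The share of all genes that reach it was not computed, so nothing is read from that count.

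Genes whose products act on alpha-arrestin proteins were described too. Of 8 NEDD4 family ligases and 7 genes of AMPK and LKB1, 0 were SDE with edgeR or DESeq2. AMPK is the kinase that marks TXNIP for loss when energy is low. SDE genes were 0.947%, 0.136% and 1.4% of all genes at 3, 6 and 12 h. Lists this small would seldom hold one at these shares, so nothing is read from the 0. With the RUV scores WWP2, a ligase named after its values were seen, was SDE at 3 h. In each list 1 gene passed an unadjusted p under 0.05 against at least 2 controls, a rule without a background. The values of ITCH, the ligase of TXNIP, lay between -0.08 and 0.12. ARRDC1 and ARRDC2, at low levels, ranged from -0.13 to 0.51 and from -0.32 to 0.34 with SEs of 0.20 to 0.30, and 0 of these 2 were SDE with edgeR, with DESeq2 or at an unadjusted p.

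**Figure D5:**
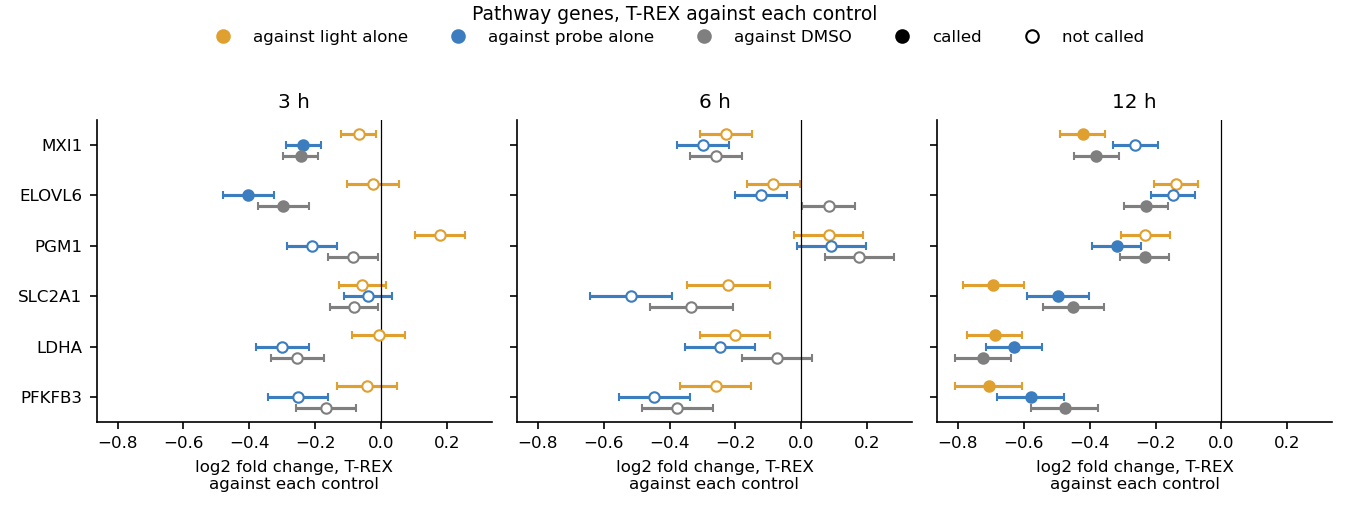
log2 fold change of T-REX against each control (horizontal axis, 1 scale for all panels) at 3, 6 and 12 h for the 6 pathway genes that were SDE at 1 or more times, with 1 SE as the error bar and filled points for calls. At 12 h SLC2A1, LDHA and PFKFB3 lie between -0.72 and -0.45 against all 3 controls.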

How the data were processed

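Libraries of HEK293T RNA were made with a stranded mRNA kit whose poly(A) selection was replaced by rRNA depletion, and sequenced as paired ends. The study names cutadapt, TopHat and Cufflinks for its RNA-seq; which tool made the deposited counts, and the genome build, are not given in the sources used here. The authors deposited raw counts per gene for each time point, log2 CPM, and 2 factors of unwanted variation per library (RUV), which are scores without a unit. The filter on low counts (filterByExpr) removed none of the deposited genes.

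Counts were scaled by TMM and fitted with edgeR 4.0.16 (quasi-likelihood test, R 4.3.3), with 16 libraries per time point for arms and 48 for time. P-values were adjusted by Benjamini-Hochberg over all 14685 genes, with a threshold of 0.05. They rest on the spread between libraries within groups, estimated once per gene over all groups of a fit. Alternatives were RLE factors, no filter, DESeq2 1.42.0, limma 3.58.1 on the deposited log2 CPM, the replicate number as a block, the deposited RUV scores as covariates, only the groups compared, and each library left out. The scripts were tested on simulated data.

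Members and gene lists were chosen with earlier results of these data known. Named were the 5 members, every pathway gene that was SDE, a set of the best known genes of each role, and the 5 genes most correlated with TXNIP and with ARRDC4 under each centring. Exon lengths came from GENCODE 29, which held 14556 of the identifiers. Symbols came from a separate list of gene names, which gave one to 13443 of them. Promoters came from RefSeq (GRCh38.p14), with all 5 members and 63 of 76 listed genes found.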

Additional observations from a re-analysis of the deposited data

Results flagged for a closer look

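In 5 of the 60 groups of 4 libraries (5 genes, 4 arms, 3 times), 1 library lay apart from the other 3, with a gap to the nearest that took more of the group's range than Dixon's critical value allows. Chance alone gives such a gap in about 1 of 20 groups. ARRDC4 measured 37.1 CPM in probe alone 12 h replicate 1, beside 32.5 to 33.0 in the other libraries. It measured 44.8 CPM in DMSO 12 h replicate 3, beside 40.2 to 41.0. Both of these libraries belong to the comparison of probe alone with DMSO at 12 h, and the ARRDC4 call there was lost without the second (adjusted p = 0.0508, edgeR) and not without the first. ARRDC3 measured 115.5 CPM in DMSO 6 h replicate 3, beside 141.0 to 145.6. MLX measured 13.3 CPM in probe alone 12 h replicate 4, beside 18.3 to 18.7, and the MLX change from 3 to 12 h with probe alone was lost without it (adjusted p = 0.101, edgeR). MLX also measured 19.5 CPM in DMSO 3 h replicate 1, where the other libraries all rounded to 20.6. None of the 5 is a T-REX library.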

How the results depend on the processing

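Of the 45 log2 fold changes of the 5 genes under T-REX, all moved by less than 1 SD under every alternative, and the number called ranged from 17 with only the 2 arms compared to 24, around 20 (19 to 21 with each library left out). Calls between controls, 2 of 45, came to 1 with the replicate block, 1 with only the 2 arms compared and 6 with the RUV scores as covariates, and ranged from 0 to 2 with each library left out. With the RUV scores ARRDC3 at 12 h was called higher in the probe arm than in the DMSO arm (adjusted p = 0.0449), as with DESeq2 (adjusted p = 0.0347). SDE pathway genes at 3 h, 2 of 62, came to 5 with DESeq2, 11 with the RUV scores (5 of them higher) and 0 with only the 2 arms, and ranged from 0 to 3 with each library left out. At 6 h, 0 became 1 with DESeq2, 4 with the RUV scores and 2 with only the 2 arms, and stayed at 0 with each library left out. At 12 h, 5 became 9 with DESeq2, 13 with the RUV scores and 10 with only the 2 arms, and ranged from 4 to 9. At 1 or more times, 6 became 11, 21 and 10 under the same settings, and ranged from 5 to 10. The cause was not tested. Time calls, 19 of 60 with the T-REX arm included, ranged from 17 to 20 with each library left out and from 18 to 22 otherwise. Control differences between times stayed at 0. RLE factors, no filter and limma moved no count by over 1.5 times. The replicate numbers were not taken to pair the libraries, since deviations of equally numbered libraries correlated by -0.49 to 0.49. At 3, 6 and 12 h, 4, 10 and 3 of 16 libraries correlated best with their own number, a hint from the data at 6 h. With the replicate block 23 T-REX calls, 19 time calls and 3, 0 and 5 SDE pathway genes were made. At 12 h 4 of those 5 were shared, with HK2 in place of PGM1, and TXNIP was no longer called between the light and probe arms (adjusted p = 0.0508).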
